A study of Homo sapiens with 5 samples.

Results

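Desmosomes are adhesive junctions that couple the intermediate filaments of neighbouring epithelial cells. Desmosomal cadherins, the desmogleins (DSG) and desmocollins (DSC), bind each other across the intercellular gap in a calcium-dependent manner. Inside the cell plakophilins and plakoglobin bind the cadherin tails, and the plakin desmoplakin links this plaque to keratin filaments. In stratified squamous epithelium, such as that of the esophagus, several cadherin isoforms are expressed in overlapping layers. The genes described here are 4 desmosomal cadherins (DSC2, DSC3, DSG2 and DSG3), 3 plakophilins (PKP1, PKP2 and PKP3) and 3 plaque plakins (DSP, PPL and EVPL). They were chosen by name, as those of this list that have a named probe set on the array, and all 10 of 10 had one, out of 14812 named genes in all.

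The cells were TE7, a human esophageal carcinoma line. The 2 control clones had been transduced with pMIRNA1-puro-control and the 3 CDH26 clones with pMIRNA1-puro-CDH26, which expresses CDH26, another member of the cadherin family. Each clone came from a single cell, was grown to confluency and then kept in RPMI with 1.8 mM calcium for 24 h, so both groups carried a vector and received the same calcium. Total RNA of each clone was measured on its own array, an Affymetrix Gene 2.0 ST. The labels name no separate transductions or cultures within a clone, and a clone is the replicate here.

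Values are on a log scale, read as log2, as differences from the average of both control clones. The control mean of every gene is therefore 0, control clones 1 and 2 have equal and opposite values, and a value is a difference from that mean and not a level. Levels of different genes cannot be ranked, and neither the tissue of origin nor the presence of a junction protein's transcript can be checked against its markers. The CDH26 transcript was at 2.87, 3.01 and 2.63 in the clones transduced with its construct and within 0.01 of 0 in both controls. In limma with Benjamini-Hochberg adjustment over 14812 genes, 0 genes passed an adjusted p of 0.05 (0.0%). CDH26 itself did not pass in this fit, with an adjusted p of 0.25 and an unadjusted p of 3.1e-05. At an unadjusted p under 0.05 there were 520 genes higher (3.51%) and 593 lower (4.0%). With 2 control and 3 CDH26 clones the smallest possible exact permutation p is 0.1, so no such test was made for single genes. In each clone's RNA, more expressing cells and more RNA per cell cannot be told apart.

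The largest differences among the 10 genes were those of 3 desmosomal cadherins, except that against control clone 1 alone DSC3, at 0.37, was below PKP1, at 0.39, and below PKP3 and PPL in size, both at −0.37. Mean log2 differences between CDH26 and control clones were 1.00 for DSG3, 0.95 for DSC2, 0.92 for DSC3 and 0.17 for DSG2. In DSC2, DSC3 and DSG3 the lowest CDH26 clone exceeded the higher control. Of the plaque genes, PKP1 and DSP had smaller positive differences, also without overlap, while PKP2, PKP3 and PPL had negative differences with overlapping groups. EVPL had a negative difference too, and its groups met in a tie of CDH26 clone 2 with control clone 2. In all, the CDH26 mean was the higher in 6 of the 10 genes, against 47.9% of all named genes. In 5 of the 10 the CDH26 clones lay wholly above the controls, against 8.98% of all named genes, and in 0 wholly below, against 9.93%. A tie between the groups keeps a gene out of both counts, here and below. Only 6857 of the 14812 named genes were free of ties between arrays, against 8 of the 10. Both shares may therefore be lower than among untied genes, for which they were not computed. None of the 10 passed the adjusted threshold in limma. An unadjusted p under 0.05 was found in the higher direction for 3 (DSC2, DSP and PKP1), against 3.51% of all named genes. In the lower direction it was found for 0, against 4.0%. An adjusted p of 0.626 recurs below, because the adjustment gave many genes this shared value, and it does not rank them. Among members with that value, the unadjusted limma p above 0.05 were 0.053 (DSG3), 0.10 (DSC3), 0.14 (PPL) and 0.20 (DSG2). The median difference over the 10 genes was 0.26, against 0.00 over all named genes.

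**Figure D1:**
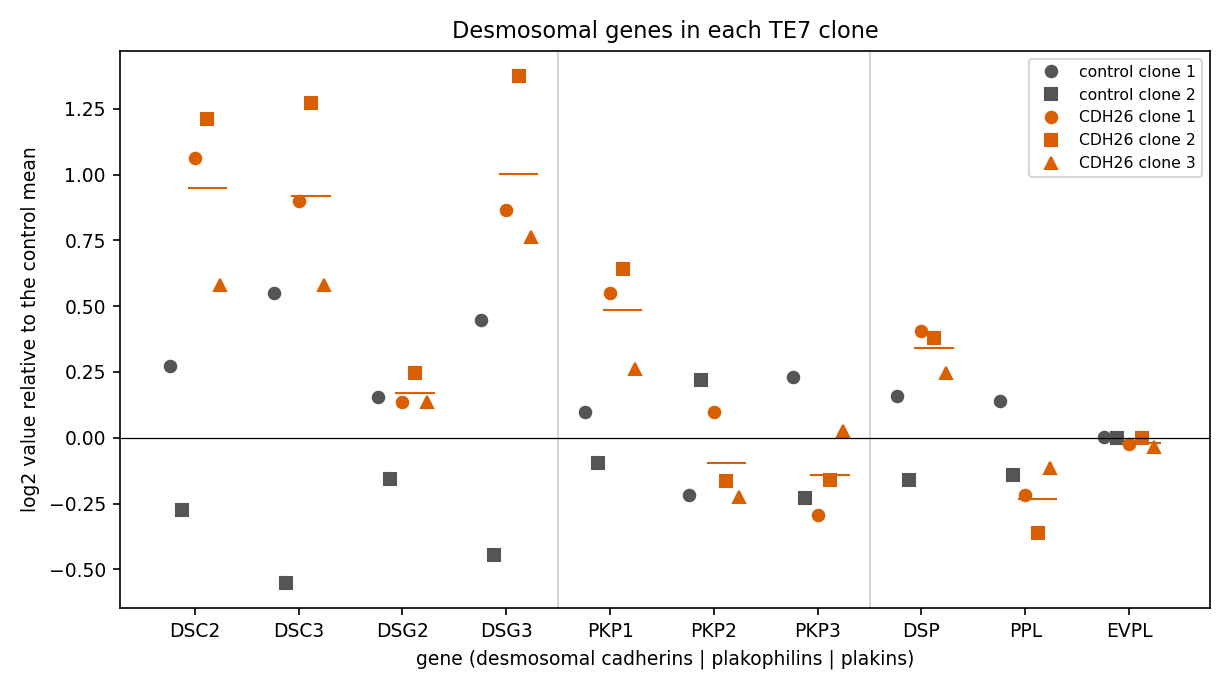
Log2 value of each desmosomal gene relative to the control mean (vertical axis) in 2 control clones (grey) and 3 CDH26 clones (orange), 1 point per clone; orange lines mark the mean of the CDH26 clones. DSC2, DSC3, DSG3, PKP1 and DSP have all orange points above both grey points, and CDH26 clone 2 reaches 1.37 in DSG3.

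DSC2, the desmocollin found in most desmosome-bearing tissues, had values of 1.06, 1.21 and 0.58 in the CDH26 clones (given here and below in the order 1, 2, 3), while control clone 1 was at 0.27 and control clone 2 at −0.27. The lowest CDH26 clone, clone 3, exceeded the higher control by 0.31, so the groups did not overlap. The CDH26 mean was 0.95 ± 0.33 (SD, n = 3), a 1.93-fold difference from the controls. The limma estimate was 0.95 ± 0.28 (SE; 95% interval 0.16 to 1.74), with an unadjusted p of 0.029 and an adjusted p of 0.626. Against control clone 1 alone the difference was 0.68, and against control clone 2 alone it was 1.22.

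DSC3, a desmocollin of the basal and lower layers of stratified epithelium, was at 0.90, 1.27 and 0.58 in CDH26 clones 1, 2 and 3. Control clone 1 was at 0.55 and control clone 2 at −0.55. CDH26 clone 3 was thus only 0.03 above control clone 1, and the control clones lay 1.10 apart, further than the groups. The difference was 0.92 ± 0.43 (SE; 95% interval −0.28 to 2.12; limma, adjusted p = 0.626), or 1.89-fold. It was 0.37 against control clone 1 alone and 1.47 against control clone 2 alone.

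DSG3, the desmoglein of basal and suprabasal keratinocytes and the autoantigen of pemphigus vulgaris, was at 0.86, 1.37 and 0.76 in CDH26 clones 1, 2 and 3. The controls were at 0.45 and −0.45. All CDH26 clones were higher, by at least 0.32, and the difference of 1.00 ± 0.36 (SE; 95% interval −0.02 to 2.02) corresponds to 2.00-fold. DSG3 was the 1 gene of the 10 to reach a 2-fold difference, which 0.506% of all named genes reached in this direction at any p. That count rests on a value at the limit and on the assumed log base: DSC2, DSC3 and DSG3 pass 2-fold if the values are natural logarithms (1.09% of named genes) or without control clone 1 (0.79%), and 0 of the 10 pass without control clone 2 (0.608%). These alternative counts were added after seeing the data. Its adjusted p in limma was 0.626, and the difference was 0.55 against control clone 1 alone and 1.45 against control clone 2 alone.

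DSG2, the widely expressed desmoglein that is also present in simple epithelia, had nearly equal values in 4 of the 5 clones. CDH26 clones 1, 2 and 3 were at 0.13, 0.24 and 0.13, control clone 1 at 0.16 and control clone 2 at −0.16. Control clone 1 lay inside the range of the CDH26 clones, and only control clone 2 was apart. The difference was 0.17 ± 0.11 (SE; 95% interval −0.14 to 0.48; limma, adjusted p = 0.626), and against control clone 1 alone it was 0.02.

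These cadherin genes lie side by side in 1 cluster on chromosome 18, in the order DSC3, DSC2, DSC1, DSG1, DSG4, DSG3 and DSG2 (RefSeq annotation of GRCh38.p14), so the genes with large differences are not all neighbours. DSC1 and DSG1, the isoforms of the upper layers of stratified epithelium, had differences of 0.01 and −0.01, and their values in the 5 clones ran from −0.05 to 0.05 and from −0.04 to 0.02. DSG4, a hair-follicle desmoglein, was at 0.00 on every array. Differences near 0 were therefore measured for the 3 genes in the middle of the cluster and differences of 0.92 to 1.00 on both sides of them. A gene that is not expressed in any clone would also give values near 0, and these values hold no level by which to tell.

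**Figure D2:**
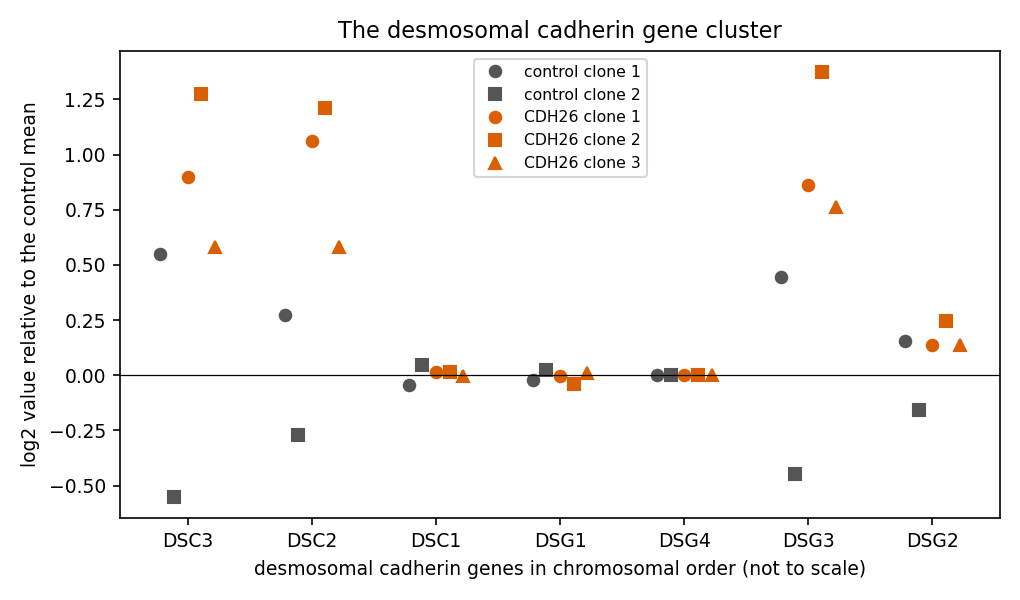
Log2 value relative to the control mean (vertical axis) of the 7 desmosomal cadherin genes in chromosomal order (horizontal axis, not to scale), 1 point per clone, control clones grey and CDH26 clones orange. DSC3, DSC2 and DSG3 spread from −0.55 to 1.37, while DSC1, DSG1 and DSG4 stay within 0.05 of 0.

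The promoters of the 4 cadherin members are shown because the 3 with large differences had similar values clone by clone and DSG2, in the same cluster, had smaller ones. Each line gives the 250 bases before the annotated start (RefSeq, GRCh38.p14), 5′ to 3′ on the gene's strand; capitals mark CAGGTG, the E-box form bound by SNAI and ZEB repressors, and CACCC, a core bound by KLF factors, each on either strand. For DSC2 RefSeq lists 2 starts, and the window of the first one listed is given.
DSC3, chr18:31042743-31042992, minus strand: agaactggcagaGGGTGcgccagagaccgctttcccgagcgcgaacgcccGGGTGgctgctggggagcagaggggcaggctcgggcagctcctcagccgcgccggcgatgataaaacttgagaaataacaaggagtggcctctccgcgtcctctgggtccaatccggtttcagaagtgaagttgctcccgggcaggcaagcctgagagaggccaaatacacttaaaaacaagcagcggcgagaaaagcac
DSC2, chr18:31102422-31102671, minus strand: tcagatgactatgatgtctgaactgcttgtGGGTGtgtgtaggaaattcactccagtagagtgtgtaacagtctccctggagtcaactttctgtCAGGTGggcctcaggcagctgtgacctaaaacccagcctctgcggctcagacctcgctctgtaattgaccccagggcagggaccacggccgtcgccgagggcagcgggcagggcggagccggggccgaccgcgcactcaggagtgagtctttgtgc
DSG3, chr18:31447491-31447740, plus strand: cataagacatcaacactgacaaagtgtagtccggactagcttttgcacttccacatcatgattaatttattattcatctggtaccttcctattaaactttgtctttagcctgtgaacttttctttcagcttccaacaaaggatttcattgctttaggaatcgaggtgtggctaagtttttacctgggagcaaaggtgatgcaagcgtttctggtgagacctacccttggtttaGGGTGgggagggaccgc
DSG2, chr18:31497927-31498176, plus strand: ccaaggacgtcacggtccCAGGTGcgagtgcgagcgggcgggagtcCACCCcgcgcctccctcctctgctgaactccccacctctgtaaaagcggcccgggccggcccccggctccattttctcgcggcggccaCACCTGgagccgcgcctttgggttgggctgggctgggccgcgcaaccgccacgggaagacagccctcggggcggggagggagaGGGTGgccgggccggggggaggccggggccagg

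A window was found for 6 of the 10 genes, these and DSP and PKP1. CACCC (or GGGTG) was present in all 6, and in 54.7% of the 35116 RefSeq windows of this length. CAGGTG (or CACCTG) was present in DSC2, DSG2 and DSP, and in 17.5% of all windows. It was not in the DSC3, DSG3 and PKP1 windows, so it did not separate the genes with a large difference from DSG2. The AP-1 letters TGANTCA and the TATA box TATAAA were in 0 of the 6 windows and in 6.57% and 10.7% of all windows. GGGCGG, the GC box, was in DSC2, DSG2, DSP and PKP1 (42.6% of all windows), and CCAAT in DSC3 (32.0%). The windows also differed in composition: DSG3 was 42.8% G or C with 4 CpG sites, DSC2 and DSC3 were 59.6% and 60.4% with 12 and 18, and DSG2 was 75.2% with 26, against a median of 58.0% and 11 sites over all windows. These matches describe letters and show no binding.

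The plakophilins, armadillo-repeat proteins that cluster cadherins in the plaque, did not share 1 direction. PKP1, the plakophilin of stratified epithelium, was at 0.55, 0.64 and 0.26 in the CDH26 clones, and the controls were at 0.10 and −0.10. Every CDH26 clone was higher than both controls, which lay only 0.19 apart. The difference was 0.48 ± 0.15 (SE; 95% interval 0.08 to 0.89), or 1.40-fold, with an unadjusted p of 0.030 and an adjusted p of 0.626 in limma. It was 0.39 against control clone 1 alone and 0.58 against control clone 2 alone, a smaller relative range than in DSC3 or DSG3.

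PKP2, which is found in simple epithelia and cardiac junctions, had values of 0.10, −0.16 and −0.22 with the CDH26 construct, and control clones 1 and 2 were at −0.22 and 0.22. The groups overlapped almost wholly, with a difference of −0.10 ± 0.18 (SE; 95% interval −0.61 to 0.41; limma, adjusted p = 0.841). It was the 1 gene of the 10 in which control clone 2 was the highest array (22.6% of all named genes), and against control clone 1 alone the sign turned, to 0.12.

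PKP3, a plakophilin of most epithelia, was at −0.29, −0.16 and 0.03 with the CDH26 construct, and the controls were at 0.23 and −0.23. The CDH26 clones again overlapped the controls, and the difference was −0.14 ± 0.18 (SE; 95% interval −0.66 to 0.38; limma, adjusted p = 0.77). Here the sign turned against control clone 2 alone, to 0.09. The intervals of PKP2 and PKP3 include differences as large as 0.41 and 0.38 upwards, so they do not show that these genes were equal in the groups, and whether they differed from PKP1 was not tested.

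Among the plakins, DSP encodes desmoplakin, the obligate link between plaque and keratin filaments. DSP was at 0.40, 0.38 and 0.24 with the CDH26 construct, against 0.16 and −0.16 in the controls. The CDH26 clones were all higher, clone 3 by 0.09 over control clone 1. The difference was 0.34 ± 0.12 (SE; 95% interval 0.01 to 0.68), or 1.27-fold, with an unadjusted p of 0.047 and an adjusted p of 0.626 in limma, and it was 0.18 against control clone 1 alone and 0.50 against control clone 2 alone.

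PPL (periplakin) and EVPL (envoplakin) are plakins that associate with desmosomes and become part of the cornified envelope. PPL was at −0.22, −0.36 and −0.12 in the CDH26 clones, and control clones 1 and 2 were at 0.14 and −0.14. CDH26 clone 3 lay 0.03 above control clone 2, and this was the whole overlap of the groups. The difference was −0.23 ± 0.12 (SE; 95% interval −0.58 to 0.12; limma, adjusted p = 0.626), and −0.09 against control clone 2 alone. EVPL varied least of the 10 genes, from −0.04 to 0.00 over the 5 clones, with a difference of −0.02 ± 0.02 (SE; limma, adjusted p = 0.7). CDH26 clones 1 and 3 were below both controls, and clone 2 tied with control clone 2, the lower control.

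**Figure D3:**
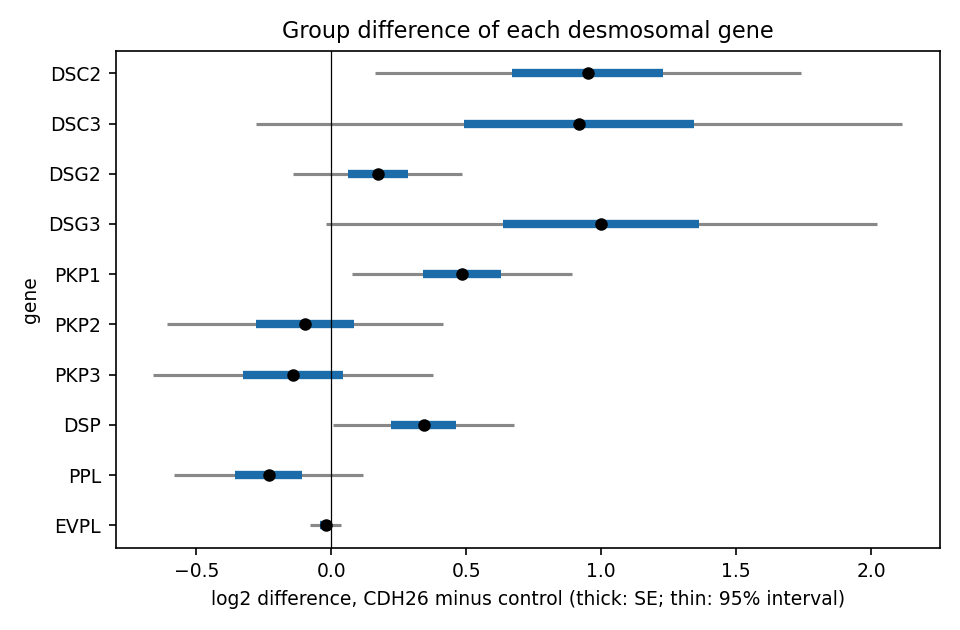
Log2 difference between CDH26 and control clones for each gene (horizontal axis), with the limma SE as a thick bar and the 95% interval as a thin line. The intervals of DSC2, PKP1 and DSP lie above 0, those of the other 7 genes include 0, and the values run from −0.23 in PPL to 1.00 in DSG3.

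The same clones were high and low in several of these genes. Control clone 2 was the lowest array in 6 of the 10, DSC2, DSC3, DSG2, DSG3, DSP and PKP1, against 22.5% of all named genes. CDH26 clone 2 was the highest array in DSC2, DSC3, DSG2, DSG3 and PKP1, against 15.3% of all named genes. DSC2, DSC3, DSG3 and PKP1 also shared the full order within the CDH26 clones, with clone 2 highest, then clone 1, then clone 3, all above the controls, an order found in 2.45% of named genes. These orders were noticed in the same genes that are counted here, so the shares are descriptions. The named genes also include those with tied arrays, and a tie can keep a gene out of such orders. The shares may thus be lower than among untied genes. The CDH26 transcript itself had the full order within the CDH26 clones, at 3.01, 2.87 and 2.63, over a range of 0.38. In DSC2, DSC3 and DSG3 the CDH26 clones ranged over 0.63, 0.69 and 0.61. With 3 CDH26 clones no relation between the transgene and these genes could be tested.

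The gap between the control clones was wider than the group difference in DSC3, DSG2, PKP2, PKP3 and PPL, 5 of the 10, against 54.1% of all named genes. Leaving out control clone 1 kept DSC2, DSC3, DSG3, DSP and PKP1 wholly above the remaining control and added DSG2, and leaving out control clone 2 kept the same 5 without DSG2. Single-control counts have a higher background, 25.9% and 23.8% of named genes. Without control clone 1, 186 genes over the whole array (1.26%) passed the adjusted threshold in limma, and 0 of the 10 were among them; their lowest adjusted p there was 0.14, for DSP. Wholly below the remaining control were PKP2 without control clone 1 (27.0% of named genes) and PKP3, PPL and EVPL without control clone 2 (25.7%). Leaving out CDH26 clone 1, 2 or 3 also kept the 5 genes wholly above the controls, against 12.2%, 11.5% and 14.9% of named genes. EVPL then lay wholly below them without CDH26 clone 2 (11.9%) and PPL without CDH26 clone 3 (17.3%).

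**Figure D4:**
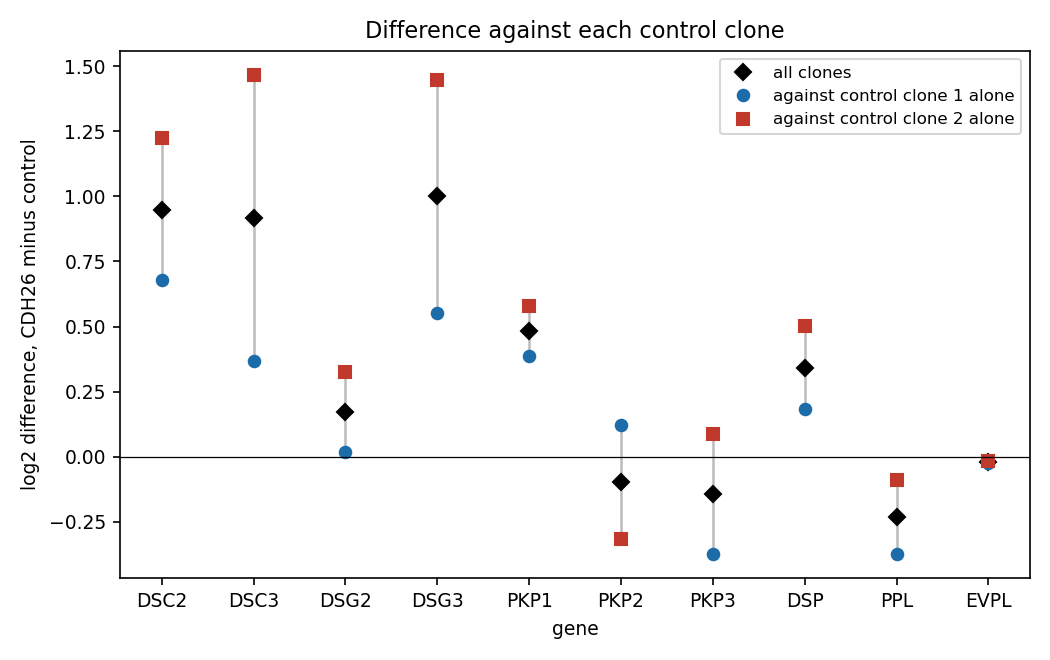
Log2 difference between CDH26 and control clones (vertical axis) with all clones (black diamonds), against control clone 1 alone (blue circles) and against control clone 2 alone (red squares), for each gene. The distance is widest in DSC3, from 0.37 to 1.47, and the sign turns in PKP2 and PKP3.

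By Euclidean distance over the 5 log2 values, the nearest pair among the 10 genes was DSC3 and DSG3, at 0.26. PKP3 and PPL followed at 0.29, and DSP and PKP1 at 0.31. Over all named genes the nearest to DSG3 were DOCK11, a guanine nucleotide exchange factor (distance 0.26), DSC3 (0.26) and TBC1D32 (0.31), and DSC2 was the sixth at 0.40. Those nearest to DSC2 were STARD5, a lipid-binding START domain protein (0.13), TMEM144 (0.16) and AGTPBP1, a tubulin deglutamylase (0.19). Such distances describe similar values in these 5 clones.

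Other desmosome genes had small values. Of 7 listed, 6 were measured, with a median difference of 0.03. Here and below, measured means having a named probe set. In this list 2 lay wholly above the controls and 0 below, and 0 passed the adjusted threshold. For this and each list below, the shares over all named genes are 8.98% wholly above and 9.93% wholly below. JUP, which encodes plakoglobin, had values of 0.11, 0.09 and 0.06 with the CDH26 construct against −0.04 and 0.04 in the controls, a difference of 0.09 ± 0.04 (SE). PKP4, an armadillo protein related to the plakophilins, differed by 0.15 ± 0.04, and CDSN, the corneodesmosome protein corneodesmosin, by 0.05 ± 0.08 over 4 probe sets. Like the largest members, JUP and PKP4 had no overlap between the groups, but all their values lay within ranges of 0.15 and 0.23. The limma adjusted p was 0.626, 0.626 and 0.835.

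Among the other plakin cytolinkers, 0 of 4 lay wholly above the controls and 0 wholly below. In MACF1, CDH26 clones 1 and 2, at −0.36 and −0.28, were below both controls, and clone 3 tied with the lower control at −0.18. PLEC (plectin), MACF1 and EPPK1 (epiplakin) differed by −0.23 ± 0.14, −0.27 ± 0.13 and 0.16 ± 0.24 (SE). CDH26 clones 2 and 3 tied with control clone 2 in PLEC, at −0.21, and in DST, at 0.05. CDH26 clone 1 was below both controls in PLEC and above both in DST. Of 7 hemidesmosome genes only CD151 had a named probe set, at −0.03 ± 0.14. Probe sets without a gene name (28772 of 44607) were not used, so genes counted as not measured may still be on the array.

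Keratins form the filaments that desmosomes anchor. Of 14 measured of 17 listed, 4 lay wholly above the controls (KRT5, KRT14, KRT1 and KRT19), against 8.98% of all named genes. Another 2 lay wholly below (KRT7 and KRT80), against 9.93%, and 0 passed the adjusted threshold in limma. The basal keratin KRT14 differed by 2.72 ± 0.43, KRT10 by 1.06 ± 0.77 and KRT80 by −1.90 ± 0.49 (SE). KRT5, the basal partner of KRT14, was at 0.57, 0.75 and 0.50 in the CDH26 clones and at 0.49 and −0.49 in the controls. KRT5 thus resembled DSC3, with CDH26 clone 3 just above control clone 1 and control clone 2 far below.

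Cornified envelope partners of PPL and EVPL had a median difference of 0.08 over 12 measured of 14. Of these, 3 lay wholly above the controls (8.98% of all named genes) and 0 below (9.93%). The 3 were IVL, with a difference of 0.04, S100A11, with 0.13, and SPRR1B, with 2.14. SPRR1B, a cross-linked envelope precursor, was at 1.86, 3.73 and 0.84 in the CDH26 clones against 0.03 and −0.03 in the controls. The protease inhibitor CSTA differed by 0.57 ± 0.36 (SE) and S100A10 by 0.27 ± 0.15, neither wholly above the controls. In S100A10 only CDH26 clone 1, tied with control clone 1 at 0.18, was not above both controls. PPL and EVPL were at −0.23 and −0.02, and 0 of the 12 passed the adjusted threshold.

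Transcription factors known to act on desmosome genes were measured for 13 of 17, with a median of 0.03. ZNF750, KLF4 and KLF5 lay wholly above the controls (8.98% of all named genes) and GRHL2, SNAI1 and SNAI2 wholly below (9.93%). KLF5, SNAI1 and SNAI2 cleared the nearest control by only 0.007, 0.009 and 0.008, with differences of 0.30, −0.24 and −0.07. GRHL2 differed by −0.13. ZEB1 and ZEB2, with differences of −0.02 and 0.01, overlapped the controls. KLF4, a factor of squamous differentiation, was at 0.99, 0.61 and 0.32 in the CDH26 clones, a difference of 0.64 ± 0.23 (SE), ZNF750 differed by 0.55 ± 0.15 and GRHL1 by 0.37 ± 0.25. Of 9 measured enzymes of 12 listed that modify or cleave desmosomal proteins, 0 lay wholly above the controls and 0 wholly below. The desmosome-regulating kinase GSK3B, the sheddase ADAM17 and the protease KLK5 were at −0.18 ± 0.08, −0.17 ± 0.16 and −0.24 ± 0.18. In GSK3B only CDH26 clone 3, tied with control clone 1 at −0.11, was not below both controls. Of the adherens junction list 5 of 11 were measured, 1 wholly above the controls (NECTIN1) and 1 below. That was the actin linker vinculin (VCL), at −0.60 ± 0.20, and the nectins NECTIN3 and NECTIN4 were at 0.32 ± 0.19 and 0.61 ± 0.32. The adjusted p in limma was above 0.05 for every gene of these lists.

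Markers of squamous epithelium were measured for 9 of 10 listed. Of these, 5 lay wholly above the controls (KRT5, KRT14, SOX2, IVL and SFN) and 0 below, against 8.98% and 9.93% of all named genes. KRT5 and KRT14 were also counted among the keratins and IVL among the envelope partners, so these counts are not separate. KRT5 and IVL cleared the higher control by only 0.004 and 0.01. List medians were 0.57, 0.67 and 0.50 with the CDH26 construct, against 0.14 and −0.14 in control clones 1 and 2. Control clone 2 was thus lowest in this list, as in DSC2, DSC3 and DSG3. SOX2 and KRT13 differed by 1.30 ± 0.68 and 0.92 ± 0.55 (SE). Their control clones lay further apart than that, by 2.05 and 1.66, and KRT13 overlapped the controls. SFN, TRIM29, KRT4, IVL and PITX1 differed by 0.63, 0.21, 0.09, 0.04 and 0.00. The columnar list, 7 of 11 measured, had medians from −0.08 to 0.11 over the clones, with 0 wholly above and 1 below (GATA6, −0.41 ± 0.13), and TFF1 and TFF3 were each at 0.13. The fibroblast list, 4 of 11 measured, had medians of −0.05 and 0.05 in the controls and 0.02 to 0.10 in the CDH26 clones; VIM was at 0.07 ± 0.06 and FN1 at −0.13 ± 0.41, while LUM (lumican) lay wholly above the controls at 1.59 ± 0.42. The leukocyte list, 4 of 8 measured, had medians from −0.06 to 0.06 in the controls and from −0.02 to −0.01 in the CDH26 clones; the lysosomal protein CD68 lay wholly above, at 1.07 ± 0.33, CD14 wholly below, at −0.04 ± 0.04, and CD2 at −0.10 ± 0.09. In the endothelial list, 3 of 6 measured, the differences of VWF, KDR and CLDN5 were between −0.02 and 0.01. The part of these markers in the values of the desmosomal genes was not tested.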

How the data were processed

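Gene expression was measured in 5 TE7 clones (2 control, 3 CDH26), grouped from the labels. The deposited values are log2 (base assumed, not recorded), centred by the authors on the control mean of each probe set: in every row the 2 control values summed to 0 within 1e-06. The submitters' processing notes name Affymetrix Expression Console; its version, the summarisation and the background correction were not given in the sources used here. Of 44607 probe sets, 15835 carried 1 gene name and 28772 none; they gave 14812 genes, averaged over probe sets. Each of the 10 genes had 1 probe set.

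The test was limma 3.58.1 (R 4.3.3; lmFit, eBayes; two-sided) with the group as sole term, run over all named genes, with Benjamini-Hochberg adjustment and a threshold of 0.05; intervals are 95%. No filter on dim genes can be applied to centred values. The fit was tested on simulated data for the size of its estimates and for false calls, and its power to find a difference is not reported here. Wholly above or below means that the groups do not overlap (values within 1e-05 count as tied). Genes named outside the 10 were the 3 largest absolute differences of each list and the nearest patterns. KRT5, KRT1, KRT7, KRT19, DSC1, DSG1, DSG4, IVL, S100A11, KLF5, GRHL2, SNAI1, SNAI2 and NECTIN1 were named after their values were seen. So were DST, ZEB1, ZEB2, SFN, TRIM29, KRT4 and PITX1. The genes and lists were chosen with earlier results of these data known. P-values measure the spread between clones. Alternatives were each clone left out, a clone-number block, trend and robust variance, array weights, median centring, single probe sets, a threshold of 0.1, natural logarithms and genes without ties. Figures used matplotlib 3.10.9.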

Additional observations from a re-analysis of the deposited data

How the results depend on the processing

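Under the alternatives tried, 0 of the 10 genes passed the adjusted threshold, also at 0.1. The count wholly above the controls was 5 in each alternative except without control clone 1, where it was 6. With each clone left out in turn, the count wholly below ran from 0 to 3, the median difference from 0.15 to 0.41 and the genes past the adjusted threshold over the array from 0 to 186. The median difference was 0.37 with values read as natural logarithms and 0.41 among genes without tied arrays, which leaves 8 of the 10 (DSG2 and EVPL have ties) and gave 1 gene past the threshold over the array, CDH26. Differences turned sign in PKP3 without control clone 1 (0.088; −0.37 without control clone 2) and in PKP2 without control clone 2 (0.12; −0.32 without control clone 1). Without ties DSC2 had an adjusted p of 0.314, and its range over all alternatives was 0.229 to 0.77. With the clone number as a replicate block, the count past the threshold stayed 0, the count wholly above 5 and the median difference was 0.29. The labels do not say that equal numbers pair clones, and CDH26 clone 3 has no partner. Over genes, deviations of CDH26 clones 1 and 2 correlated at −0.20 and −0.21 with the control of equal number. With the other control the values were 0.20 and 0.21. Control deviations are equal and opposite by construction, so these correlations cannot show whether clones were paired. Array medians were already 0, so centring changed nothing. The number of arrays limits precision, and signal over background is not kept in centred values.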
